A study of Mus musculus with 8 samples.

Results

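The snoRNA host genes described here are long noncoding RNA genes whose introns or transcripts carry small nucleolar RNAs. They were chosen by name: Gas5, Snhg1, Snhg3, Snhg5, Snhg6, Snhg8, Snhg12, Snhg15, Snhg17 and Snhg20. Of these 10 genes, 9 had a row in the deposited table of 16940 genes, and no row carried the name Snhg3. All 9 passed the filter for testing, a mean of at least 10 normalized reads over the 8 libraries, and they are referred to below as the 9 listed host genes. A snoRNA is cut out of an intron after the host transcript is spliced, and then guides the chemical modification or processing of ribosomal and spliceosomal RNA. Box C/D snoRNAs guide the methylation of ribose, and box H/ACA snoRNAs guide the conversion of uridine to pseudouridine. The spliced host RNA that is left often codes for no protein and is degraded quickly by nonsense-mediated decay (NMD), so a measurement of newly made RNA sees transcription of these genes that steady-state RNA can hide.

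Newly made RNA was measured by TT-seq in E14 mouse embryonic stem cells (mESC), an established line, grown without serum and with leukemia inhibitory factor and inhibitors of MEK and GSK3. Cells were given 400 µM 4-thiouridine for 15 min, and the labelled RNA was fragmented, biotinylated, captured and sequenced. In all groups CTCF, the DNA-binding protein that anchors chromatin loops, carried an auxin-inducible degron (AID), through which the auxin IAA removes the tagged protein. The 4 groups, each with 2 libraries, were an overexpression control line without IAA, the same control with 12 h of IAA, a line overexpressing wild-type CTCF with 12 h of IAA, and a line overexpressing mutated CTCF with 12 h of IAA. The labels name neither the mutation, the promoter of the overexpressed genes nor whether a line is 1 clone, and no group holds an overexpression line of either CTCF without IAA. Nothing says that the 2 replicates came from separate cultures, so the p-values below measure the spread between these libraries, which may be technical.

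The libraries held 15671114 to 21561141 reads in listed genes. Across genes, which are not independent replicates, log2 values correlated with Pearson's r of 0.995 to 0.996 within groups and of 0.983 to 0.990 between them. All 7 stem cell markers used to check the label (Pou5f1, Nanog, Esrrb, Zfp42, Klf4, Tfcp2l1 and Tdgf1) were present, with a summed level of 49170 to 59810 normalized reads per library. That sum was 49200 to 49900 in the untreated control, 51900 to 53200 in the control with IAA, 56500 to 59800 with wild-type CTCF and 56300 to 58700 with mutated CTCF, and its part in the results below was not tested. None of 5 fibroblast markers had a row. Of the primitive endoderm markers 3 of 4 had a row, with sums of 174 to 256, without Sox17. Of the neural markers 1 of 3 had a row, with 3.13 to 19.2 reads, and of the mesoderm markers 2 of 3, with sums of 42.8 to 93.1. The mesoderm sum was 89.2 to 93.1 with wild-type CTCF and 42.8 to 69 in the other groups, and the primitive endoderm sum was 209 to 256 in the control with IAA and 174 to 205 in the other groups. Their part in the results was not tested either.

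The members differ in the snoRNAs they carry, and positions here are those of GENCODE M21 on GRCm38. Gas5 (ENSMUSG00000053332.13), known from growth-arrested cells, in which its spliced RNA accumulates, lies at chr1:161034422-161038539 on the plus strand and holds 9 snoRNA loci, Snord47, Snord78 and Snord80 among them. Snhg1 (ENSMUSG00000108414.1) lies at chr19:8723475-8726443 on the plus strand and holds 8 loci, among them Snord22, which is needed for processing of ribosomal RNA. Snhg5 (ENSMUSG00000097195.10), at chr9:88521050-88522929 on the minus strand, holds the box C/D pair Snord50a and Snord50b. Snhg6 (ENSMUSG00000098234.7), at chr1:9941959-9944118 on the minus strand, holds Snord87.

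Snhg8 and Snhg15 each hold a box H/ACA snoRNA. Snhg8 (ENSMUSG00000104960.1), at chr3:123507552-123508404 on the minus strand, is the shortest member with 853 bases and holds Snora24. Snhg15 (ENSMUSG00000085156.8), at chr11:6525591-6528760 on the minus strand, holds Snora9. Snhg12 (ENSMUSG00000086290.9), at chr4:132308623-132311024 on the plus strand, holds both classes in its 4 loci: Snora16a, Snora44, Snora61 and Snord99. Snhg20 (ENSMUSG00000086859.4), at chr11:117076008-117078955 on the plus strand, holds 1 scaRNA, a related RNA of the Cajal body that acts on spliceosomal RNA.

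Snhg17 (ENSMUSG00000085385.7), at chr2:158353700-158361580 on the minus strand, is the longest member with 7881 bases and holds 3 snoRNA loci without a Snord or Snora name in this annotation. Snhg3, the member with no row, lies at chr4:132348014-132353686 on the minus strand and holds the box H/ACA pair Snora73a and Snora73b. Of its 5673 bases, 5592 lie inside Rcc1 on the same strand. The 10 genes hold 32 annotated snoRNA and scaRNA loci in all, of which 0 had a row in the table, so no snoRNA has a value of its own below. In Snhg1, Snhg8 and Snhg12 the annotated exons together cover the whole gene, snoRNA loci included. Reads from these loci may therefore be counted to the host, and their part in the host values was not tested.

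The start of Snhg17 is shown because this gene changed most among the members. The sequence is RefSeq's for GRCm38.p6, chr2:158361473-158361772, read on the minus strand from 250 bases before RefSeq's first start for this gene to 50 bases after it. That start lies inside the GENCODE gene given above, downstream of its first base. Capitals mark matches to GGNGGCGCT, which are letters of the published consensus of CTCF, and to the overlapping GGGCGCTGG, each searched on both strands.
Snhg17: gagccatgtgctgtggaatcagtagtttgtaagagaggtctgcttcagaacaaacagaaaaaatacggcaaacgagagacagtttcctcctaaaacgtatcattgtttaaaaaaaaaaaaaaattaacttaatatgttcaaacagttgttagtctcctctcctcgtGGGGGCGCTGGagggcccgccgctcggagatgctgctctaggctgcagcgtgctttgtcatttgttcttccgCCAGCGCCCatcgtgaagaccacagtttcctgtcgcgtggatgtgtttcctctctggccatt
The first match runs from -84 to -76 for GGNGGCGCT and from -82 to -74 for GGGCGCTGG, counted from that RefSeq start, and the second, on the opposite strand, from -12 to -4. Counted from RefSeq's other start, the same letters begin at -97, -95 and -25. Of 32851 RefSeq windows of this length, 2.78% hold GGNGGCGCT and 0.916% hold GGGCGCTGG. Both motifs were picked after this window had been read, so the shares describe how common the letters are and test nothing. No window of another member held either motif, which says only that these letters are absent there. Windows were found for 9 of the 10 members, and Snhg6 was without one.

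Another sequence feature separates some hosts, the run of pyrimidines at the start of TOP (5′ terminal oligopyrimidine) transcripts, which is typical of genes of the translation machinery and of many snoRNA hosts. A C followed by at least 4 further C or T letters, beginning within 5 bases of an annotated start, was found in 4 of the 9 members with a window and in 16.1% of all windows. The run is in capitals in the 30 bases on each side of the start for 3 of the listed host genes, Gas5 at chr1:161035136-161035195 on the plus strand, Snhg8 at chr3:123508307-123508366 on the minus strand and Snhg12 at chr4:132308648-132308707 on the plus strand.
Gas5: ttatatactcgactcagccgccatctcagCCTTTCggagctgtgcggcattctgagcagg
Snhg8: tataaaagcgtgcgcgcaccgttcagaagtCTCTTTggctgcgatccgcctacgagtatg
Snhg12: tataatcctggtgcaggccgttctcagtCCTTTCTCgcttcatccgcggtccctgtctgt
The member at the fourth such start was Snhg3, which had no row. Gas5 has a second annotated start without such a run. The windows of Snhg1, Snhg5, Snhg15, Snhg17 and Snhg20 held none by this rule.

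Levels of different genes are compared only per kilobase (kb) of gene, as the mean over the 8 libraries. Most listed host genes were among the highest of the table on this scale, where the median gene had 13.64 normalized reads per kb. Snhg5 had 1582 reads per kb, Snhg1 1322 and Gas5 1309, at the 99.8 to 99.9 percentile of all genes with a length. Snhg8 followed with 727.5 reads per kb, Snhg6 with 544, Snhg15 with 521.5 and Snhg12 with 458.1, at the 98.8 to 99.4 percentile. Snhg20, with 104 reads per kb, and Snhg17, with 100.7, stood lower, at the 92.5 and 92.1 percentile. The order of these 2 changed with the group: Snhg17 had 168.5 reads per kb against 94.3 for Snhg20 in the untreated control and 122.8 against 106 with wild-type CTCF. It had 21.2 against 97.2 in the control with IAA, and 90.5 against 118.3 with mutated CTCF. The ranges of neighbours in this order overlapped over the 8 libraries, except that Gas5 lay above Snhg8 and Snhg12 above Snhg20 in every library.

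The order depends in part on the length used. Per kb of exon, Snhg5 stayed first with 1719 reads per kb, Gas5 (1434) came before Snhg1 (1322), and Snhg15 (1216) and Snhg6 (1025) came before Snhg8 (727.5). On this scale these 6 genes stood at the 92.9 to 98.5 percentile, and Snhg12 (458.1) at the 86.9 percentile. Snhg17 (112.6) and Snhg20 (109.7) were the lowest 2 on this scale too, at the 61.2 and 60.6 percentile. Both lengths come from the annotation, and Spearman's rho of the mean level with gene length was 0.4 over all genes, as a description.

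Within a gene, Snhg17 varied far more across the libraries than any other member. Its highest library was 8.72 times its lowest, while this ratio was 1.185 to 1.5 for the other 8. The coefficient of variation of the 4 group means was 61.5% for Snhg17 and 5.28% to 12.8% for the others. Between 2 replicates of a group, the widest gap was that of Snhg8 in the control with IAA, 0.40 on the log2 scale. For Snhg17 the widest such gap was 0.23, also in the control with IAA, and for Gas5 it was 0.04.

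**Figure D1:**
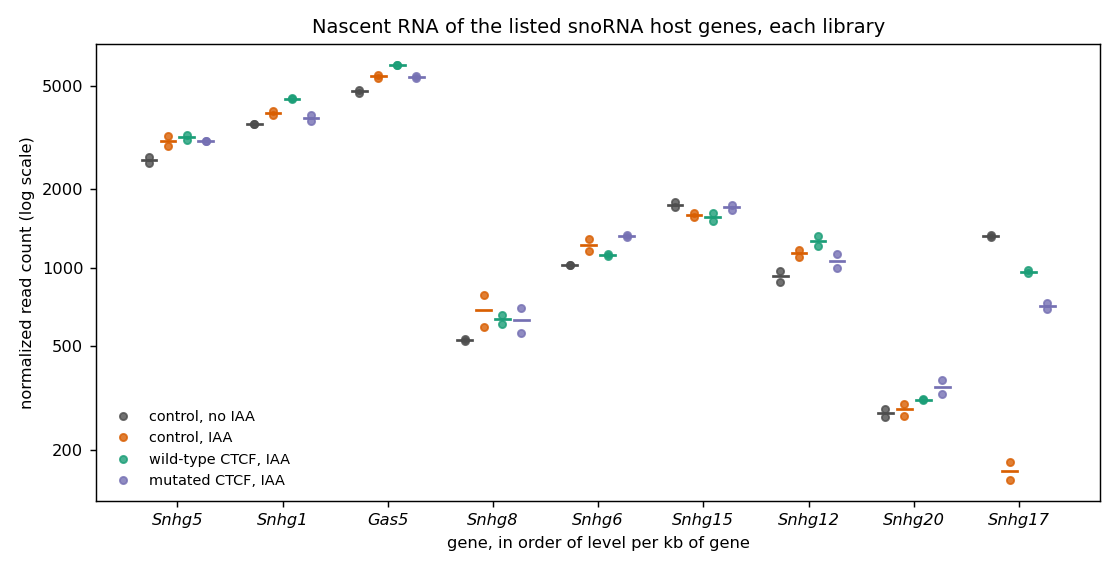
Normalized read counts (log axis) of the 9 listed host genes in each of the 8 libraries, ordered from the highest to the lowest level per kb of gene, with 1 point per library and a bar at the mean of the 2 libraries. Heights are to be compared within a gene only. The 4 groups of Snhg17 stand apart, from 154 and 180 in the control with IAA to 1340 and 1315 without it, while the groups of the other genes lie within 1.5 times of each other.

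The change with IAA, which removes tagged CTCF, was described by setting the control line with IAA against the same line without it. No line without the degron was given IAA, so loss of CTCF and other effects of IAA cannot be told apart. The loss of CTCF protein was not checked here. Snhg17 had 1340 and 1315 normalized reads in the untreated control and 154 and 180 with IAA. Both libraries with IAA lay far below both without it. The means were 1328 ± 17.2 and 167 ± 18.9 (SD, n = 2 each), so that 12.6% of the untreated level was left. On the log2(value + 1) scale used for all changes Snhg17 fell by 2.99 (SE 0.071, limma's adjusted p = 1.54e-30), the 11th lowest change of 15818 tested genes. Without the mean-variance trend in limma's prior, limma's adjusted p for the same change was 0.000162. The lowest library for this gene held 129 reads. The drop ranged from 2.87 to 3.10 when 1 library was left out at a time, and edgeR's quasi-likelihood test on the recovered reads gave -2.99 (adjusted p = 2.28e-55).

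Of the other 8 listed host genes 6 rose with IAA, 1 fell and 1 did not pass the test. Over all tested genes 19.4% were called higher and 18.4% lower, a split of 51.3% higher among the calls that became 38.5% when libraries were scaled to equal totals. The median change was 0.19 over the 9 listed host genes and -0.0017 over all tested genes. With IAA the libraries of 8 of the 9 did not overlap those without it, Snhg20 being the exception, and this held for 68.2% of all tested genes.

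Among the box C/D hosts, Gas5 went from 4695 and 4803 normalized reads to 5353 and 5492, a rise of 0.19 (SE 0.035, limma's adjusted p = 2.11e-05). Snhg5 went from 2534 and 2664 to 3195 and 2942, a rise of 0.24 (SE 0.043, limma's adjusted p = 2.09e-05). Snhg6 went from 1028 and 1024 to 1292 and 1164, a rise of 0.26 (SE 0.055, limma's adjusted p = 0.000248). In each of these genes the lower library with IAA still exceeded the higher one without it. Snhg1 rose less, from 3564 and 3577 to 3989 and 3864, by 0.14 (SE 0.038, limma's adjusted p = 0.00383). This call was lost without the first control library with IAA, where the rise was 0.11.

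Snhg12, which hosts both classes, went from 887 and 975 to 1171 and 1104, a rise of 0.29 (SE 0.062, limma's adjusted p = 0.000206). Snhg8, the host of Snora24, had 522 and 532 reads without IAA and 784 and 594 with it, a rise of 0.37 (SE 0.089, limma's adjusted p = 0.000847). Its 2 libraries with IAA lay far apart, and without the first of them the change was 0.17 (adjusted p = 0.2). Snhg15, the host of Snora9, went the other way, from 1705 and 1789 to 1564 and 1629, a fall of 0.13 (SE 0.05, limma's adjusted p = 0.0366). Its call was lost when either library with IAA or the second untreated library was left out, with changes of -0.16 to -0.095 in these fits. Snhg20 had 268 and 288 reads without IAA and 272 and 301 with it, a difference of 0.04 (95% interval -0.15 to 0.23, limma's adjusted p = 0.764). Without the mean-variance trend in limma's prior, Snhg1, Snhg8, Snhg12 and Snhg15 missed the threshold (adjusted p = 0.0669 to 0.171).

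**Figure D2:**
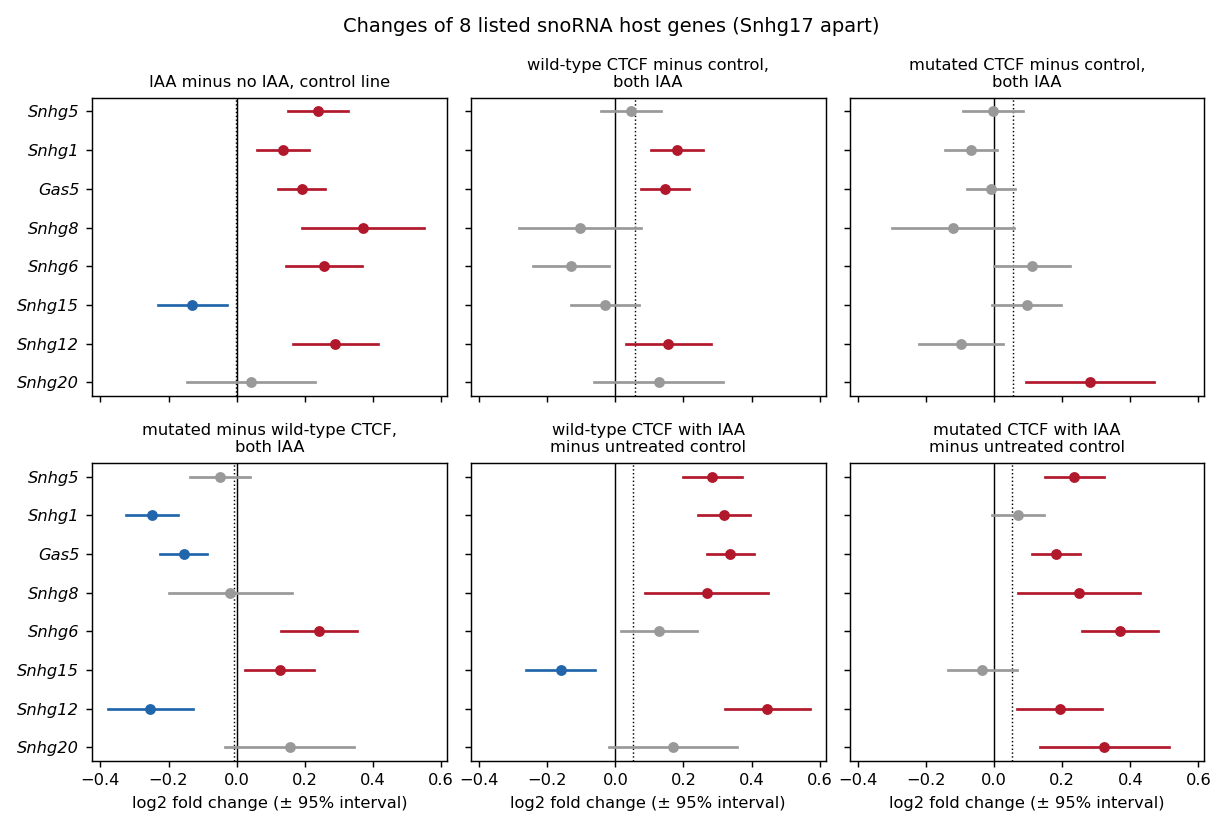
Log2 fold changes (points) with 95% intervals (bars) of the 8 listed host genes other than Snhg17 in the 6 comparisons, red where a gene passed the test as higher, blue as lower and grey where it did not pass; the dotted line is the median of all tested genes. With IAA 6 of these 8 genes passed as higher, and in mutated against wild-type CTCF, Gas5, Snhg1 and Snhg12 lie below 0 while Snhg6 and Snhg15 lie above.

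With wild-type CTCF overexpressed, Snhg17 stood at 953 and 983 normalized reads, against 154 and 180 in the control that had the same IAA treatment. The groups did not overlap, and the difference was 2.53 (SE 0.071, limma's adjusted p = 3.42e-27), the 7th highest of all tested genes. This comparison and the previous one share the control libraries with IAA, so a chance deviation of those libraries would enter both with opposite sign.

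Gas5, Snhg1 and Snhg12 also exceeded the IAA-treated control with wild-type CTCF, so 4 of the 9 were called higher and 0 lower. Over all tested genes 21.5% were called higher and 10% lower. That split, 68.3% higher among the calls, became 49.8% after median-of-ratios rescaling. Gas5 had 5991 and 6012 reads, a difference of 0.15 (SE 0.035, limma's adjusted p = 0.0011). Snhg1 had 4463 and 4444 reads, a difference of 0.18 (SE 0.038, limma's adjusted p = 0.000281). Both genes were thus above the control with IAA, which already lay above the untreated control. Snhg12 had 1216 and 1320 reads, a difference of 0.16 (limma's adjusted p = 0.049) that missed the threshold under both rescalings, as 0.10 by median of ratios (adjusted p = 0.203) and 0.13 by equal totals (adjusted p = 0.0864). The Snhg12 call was also lost with no filter on the mean (0.16, limma's adjusted p = 0.0535). It was lost too without either control library with IAA (0.20 and 0.11) or the second wild-type CTCF library (0.10).

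The other 5 did not pass. Snhg6 had 1112 and 1130 reads, both below the control with IAA (1292 and 1164), with a difference of -0.13 (limma's adjusted p = 0.0697). Its difference was -0.19 under median-of-ratios rescaling (adjusted p = 0.00545) and -0.16 when totals were made equal (adjusted p = 0.015), so that it passed in both. Without the second control library with IAA, Snhg6 (adjusted p = 0.0217) and Snhg8 (adjusted p = 0.0224) passed as lower. Snhg5 had 3097 and 3236 reads, Snhg8 661 and 610, Snhg15 1509 and 1618, and Snhg20 315 and 310, with differences of -0.10 (Snhg8) to 0.13 (Snhg20). Without the mean-variance trend Snhg17 alone of the 9 passed (limma's adjusted p = 0.000715).

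With mutated CTCF overexpressed, Snhg17 had 732 and 694 reads, again above both libraries of the control with IAA. The difference was 2.09 (SE 0.071, limma's adjusted p = 2.36e-24), the 9th highest of all tested genes. Snhg20, the scaRNA host, was the other call, with 327 and 371 reads against 272 and 301, a difference of 0.28 (SE 0.093, limma's adjusted p = 0.0159). The Snhg20 call was lost when the first control library with IAA (0.21) or the second mutated CTCF library (0.19) was left out. It was also lost without the trend (limma's adjusted p = 0.0729).

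So 2 of the 9 were called higher with mutated CTCF and 0 lower, where 22.0% of all tested genes were called higher and 12.4% lower. That split, 63.9% higher among the calls, became 49.5% after median-of-ratios rescaling. Gas5 had 5429 and 5346 reads, with a difference of -0.01 (95% interval -0.08 to 0.06) from the control with IAA. Snhg5 had 3061 and 3058 reads, with a difference of 0.00 (95% interval -0.09 to 0.08). Neither difference exceeded the spread between replicates. Snhg1 had 3844 and 3652 reads, a difference of -0.07 (limma's adjusted p = 0.174), which passed under both rescalings, as -0.12 by median of ratios (adjusted p = 0.0105) and -0.10 by equal totals (adjusted p = 0.0232). Snhg12, with 1130 and 999 reads, differed by -0.10 (limma's adjusted p = 0.233), and passed by median of ratios (-0.15, adjusted p = 0.0426) and without the first mutated CTCF library (adjusted p = 0.0443). Snhg8 passed as lower without the first mutated CTCF library (-0.28) or the second control library with IAA (-0.32). Snhg6 differed by 0.11 (limma's adjusted p = 0.117), and passed as higher without the first control library with IAA (0.19). Over all fits with 1 library left out, Snhg8 ran from -0.32 to 0.078 and Snhg6 from 0.036 to 0.19.

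Setting the mutated against the wild-type CTCF line, both with IAA, compares the overexpression lines directly. The mutation and other differences between the lines cannot be told apart here. Snhg17 was lower with mutated CTCF, at 732 and 694 reads against 953 and 983, without overlap. It differed by -0.44 (SE 0.071, limma's adjusted p = 4.87e-06), so that the level with mutated CTCF was 73.7% of that with wild-type CTCF. In all 4 fits that left out 1 of these libraries, the difference lay between -0.48 and -0.40 and passed.

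Gas5, Snhg1 and Snhg12 were lower as well, and Snhg6 and Snhg15 were higher. The counts were 2 higher and 4 lower of 9, against 16.3% and 18.4% of all tested genes. Snhg1 had 3844 and 3652 reads with mutated CTCF against 4463 and 4444 with wild-type CTCF, a difference of -0.25 (SE 0.038, limma's adjusted p = 1.66e-06). Gas5 had 5429 and 5346 against 5991 and 6012, a difference of -0.16 (SE 0.035, limma's adjusted p = 0.000446). Snhg12 had 1130 and 999 against 1216 and 1320, a difference of -0.25 (SE 0.062, limma's adjusted p = 0.00124) that missed the threshold without the second mutated CTCF library (-0.16, adjusted p = 0.076). In these 3 genes the wild-type group was the highest of the 4.

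Snhg6 had the opposite order, with 1339 and 1311 reads against 1112 and 1130, a difference of 0.24 (SE 0.055, limma's adjusted p = 0.000654). Snhg15 had 1744 and 1668 against 1509 and 1618, a difference of 0.13 (SE 0.05, limma's adjusted p = 0.0453). The Snhg15 call was lost when only these 2 groups were fitted (adjusted p = 0.0774) and when the first mutated (0.09, adjusted p = 0.28) or the first wild-type library (0.08, adjusted p = 0.352) was left out. Snhg5, Snhg8 and Snhg20 did not pass, with differences of -0.05, -0.02 and 0.16. Without the trend Gas5 (adjusted p = 0.0576), Snhg12 (adjusted p = 0.102) and Snhg15 (adjusted p = 0.188) missed the threshold.

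Set against the untreated control, neither overexpressed CTCF brought Snhg17 to the level without IAA. With wild-type CTCF it stood at 72.9% of the untreated level, a difference of -0.46 (SE 0.071, limma's adjusted p = 1.75e-06). With mutated CTCF it stood at 53.7%, a difference of -0.90 (SE 0.071, limma's adjusted p = 2.37e-13). In both comparisons the libraries did not overlap. The overexpression lines were not measured without IAA, so the line and the remaining effect of IAA cannot be told apart.

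**Figure D3:**
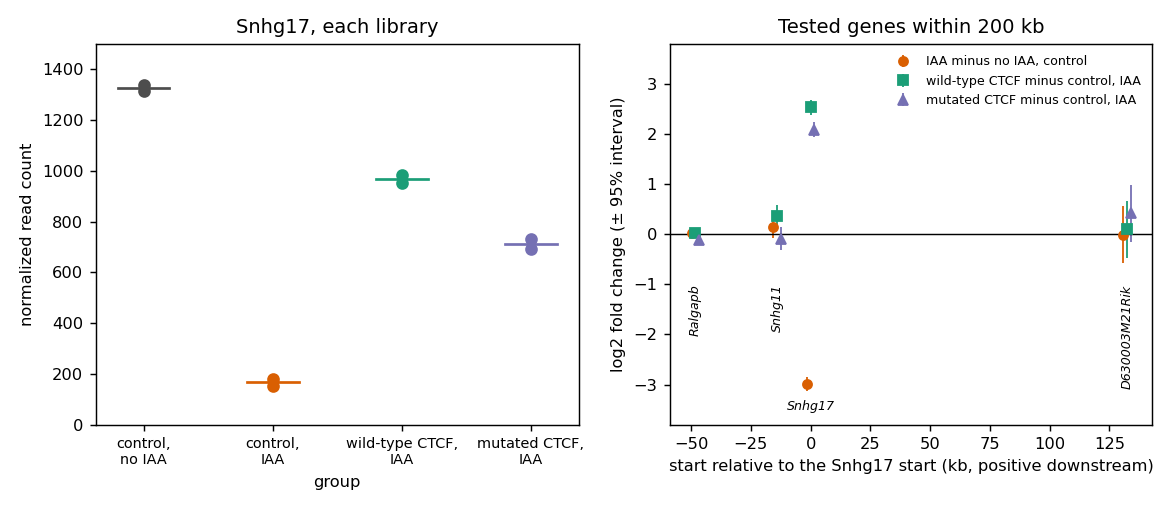
Left, normalized read counts of Snhg17 in each library (points) with the mean of the 2 libraries (bars): 1328 without IAA, 167 with IAA, 968 in the wild-type and 713 in the mutated CTCF line. Right, log2 fold changes with 95% intervals of the tested genes with a start within 200 kb of the Snhg17 start, by distance along its strand; at Ralgapb, Snhg11 and D630003M21Rik the changes lie between -0.11 and 0.42, against -2.99, 2.53 and 2.09 at Snhg17.

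Several other listed host genes stayed above the untreated control in both overexpression lines. Of the 9, 5 were higher and 2 lower with wild-type CTCF and IAA than in the untreated control, against 27.6% and 15.6% of all tested genes. With mutated CTCF and IAA 6 were higher and 1 lower, against 24.0% and 13.7%. With equal totals Snhg15 passed as lower with mutated CTCF too (-0.12, adjusted p = 0.0277). Without the trend Snhg8 (adjusted p = 0.254) and Snhg15 (adjusted p = 0.0951) missed the threshold with wild-type CTCF, and Snhg8 (adjusted p = 0.305) and Snhg12 (adjusted p = 0.17) with mutated CTCF. The splits of all calls, 64% and 63.6% higher, became 45.5% and 43.1% with equal totals, and 51.4% and 51.5% after median-of-ratios rescaling. Gas5 was higher than untreated by 0.34 with wild-type CTCF (limma's adjusted p = 1.75e-10) and by 0.18 with mutated CTCF (limma's adjusted p = 4.53e-05). Snhg5 was higher by 0.28 (limma's adjusted p = 9.02e-07) and by 0.24 (limma's adjusted p = 2.59e-05). In all 3 groups with IAA, the libraries of Gas5 and Snhg5 lay above both untreated ones, as did those of Snhg1, Snhg6, Snhg8 and Snhg12. Not all of these differences passed. The 3 comparisons share the untreated libraries, so a chance deviation of those would enter each. With IAA in the control line alone, 68.2% of all tested genes did not overlap, in either direction. The share of all tested genes that lay above untreated in all 3 groups at once was not computed.

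Snhg12 showed the largest rise over untreated with wild-type CTCF, 0.45 (SE 0.062, limma's adjusted p = 1.5e-07), and 0.19 with mutated CTCF (adjusted p = 0.0115). The latter missed the threshold under both rescalings, as 0.11 by equal totals (adjusted p = 0.129) and 0.14 by median of ratios (adjusted p = 0.0536), and without the first untreated library (0.12, adjusted p = 0.254) or the first mutated CTCF library (0.10, adjusted p = 0.286). Snhg1 was higher by 0.32 with wild-type CTCF (limma's adjusted p = 6.89e-09) and differed by 0.07 with mutated CTCF (limma's adjusted p = 0.153). Snhg6 was higher by 0.37 with mutated CTCF (limma's adjusted p = 8.7e-07) and differed by 0.13 with wild-type CTCF (limma's adjusted p = 0.0597, and 0.0488 at a minimum mean of 50). Snhg8 was higher by 0.27 and 0.25 (limma's adjusted p = 0.0135 and 0.0233), and lost both calls under either rescaling (adjusted p = 0.0627 to 0.158). Both were also lost without either untreated library, where the changes were 0.25 and 0.28 (wild-type CTCF) and 0.24 and 0.26 (mutated CTCF). The call with mutated CTCF was also lost without its first library, where the difference was 0.09 (adjusted p = 0.51). Snhg20 was higher by 0.32 with mutated CTCF (limma's adjusted p = 0.00506), a call lost without the first untreated library (0.27) or the second mutated CTCF library (0.23). Snhg15 was lower by 0.16 with wild-type CTCF (limma's adjusted p = 0.00834), a call lost without the second untreated library (-0.13) or the first wild-type CTCF library (-0.11).

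The genes around Snhg17 that could be tested were not called with IAA. Among the genes with a start within 200 kb of its own, a window set after the data were seen, 5 had a row and 3 were tested: Ralgapb, Snhg11 and D630003M21Rik. With IAA none of the 3 passed, with changes of -0.01 to 0.14. Of the 2 too low to test, Lbp had 8.36 and 8.62 reads without IAA and 2.38 and 3.3 with it, and Adig 10.03 and 6.03 against 10.72 and 9.9. Snhg11, which starts 14058 bases upstream and is also a snoRNA host, had 180 and 193 reads in the control with IAA and 233 and 246 with wild-type CTCF, a difference of 0.36 (limma's adjusted p = 0.0106). It was lower with mutated than with wild-type CTCF, by 0.45 (limma's adjusted p = 0.0014), as was Ralgapb, by 0.14 (limma's adjusted p = 0.00392). Ralgapb, which starts 48268 bases upstream, had 3796 and 3892 reads with IAA and 3584 and 3542 with mutated CTCF, a difference of -0.11 (limma's adjusted p = 0.0229).

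Some hosts share DNA with other genes. The libraries were strand-specific, while the use of strand in counting is not given in the sources used here, so reads of genes on opposite strands may not be told apart. Zbtb37, a zinc finger gene on the other strand, overlaps the first 428 bases of Gas5. It had 1008 and 1074 reads without IAA, 1107 and 1185 with IAA (0.14, limma's adjusted p = 0.0652), 1268 and 1242 with wild-type CTCF, and 973 and 1112 with mutated CTCF. Mutated against wild-type CTCF gave -0.27 for Zbtb37 (limma's adjusted p = 0.000409), the same direction as Gas5. Mcmdc2, a gene related to the MCM helicases, overlaps Snhg6 by 127 bases on the other strand. It fell with IAA, by 0.31 (limma's adjusted p = 0.0416), where Snhg6 rose, and was higher with mutated than with wild-type CTCF by 0.73 (limma's adjusted p = 8.97e-06), where Snhg6 was higher too.

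Slc3a2, which encodes the heavy chain of amino acid transporters, starts 106 bases from Snhg1 on the other strand. It rose with IAA from 1916 and 2021 to 2336 and 2232 reads, by 0.21 (limma's adjusted p = 0.000238), as Snhg1 did. Between mutated and wild-type CTCF it differed by -0.07 (limma's adjusted p = 0.277), where Snhg1 was lower. Rcc1, the exchange factor of the GTPase Ran, takes in nearly all of Snhg3 on the same strand, so reads of Snhg3 may be counted there or dropped as ambiguous. Rcc1 had 858 and 847 reads without IAA, 688 and 686 with IAA, 846 and 922 with wild-type CTCF, and 863 and 933 with mutated CTCF. It fell with IAA by 0.31 (limma's adjusted p = 9.46e-05) and was higher again by 0.36 in the wild-type and by 0.38 in the mutated CTCF line. Gm17300, on the other strand of Snhg3, had 3.95 to 12.8 reads and was not tested. The effect of these overlaps on the values of the listed host genes was not tested.

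Other snoRNA hosts were set beside the members as lists chosen with earlier results of these data known, and no list was tested as a set. Their counts stand against 19.4% of all tested genes called higher and 18.4% lower with IAA. Of 5 tested further Snhg genes, 3 rose with IAA and 0 fell, with a median change of 0.19: Snhg14 by 0.32, Snhg4 by 0.25 and Snhg16 by 0.19. Of 3 other noncoding hosts Zfas1 rose by 0.34 and Dancr by 0.24, and Epb41l4aos fell by 0.79, from a mean of 390 to 226 reads (limma's adjusted p = 3.43e-09). Of 22 tested protein-coding hosts 11 rose with IAA and 1 fell, with a median of 0.13. Eef2, the elongation factor that moves the ribosome along the mRNA, rose by 0.35, and Taf1d, a subunit of the RNA polymerase I factor SL1, rose by 0.29, while Rcc1 was the one that fell. In these 3 lists more genes rose than fell under both rescalings too. By equal totals 10 of the protein-coding hosts were higher and 2 lower, with a median of 0.075.

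The other lists hold proteins that act on snoRNAs, on host RNA or on growth, and their counts stand against the same shares. Of 16 tested snoRNP proteins and assembly factors 3 rose and 2 fell, with a median of 0.015, and with equal totals 0 rose and 2 fell, with a median of -0.04. Nufip1 and Naf1, which help to assemble box C/D and box H/ACA particles, fell by 0.29 and 0.24, and Fbl, the methyltransferase of box C/D particles, rose by 0.17. Of 15 NMD and exon junction factors 5 rose and 1 fell, with a median of 0.081. Rbm8a, an exon junction subunit, rose by 0.37, and the NMD factors Smg5 and Smg6 rose by 0.34 and 0.17. Of 11 regulators of TOP mRNAs and growth 4 rose and 1 fell, with a median of 0.079. Rptor, a subunit of mTOR complex 1, rose by 0.21, Rps6kb1, a kinase downstream of it, rose by 0.16, and Mycn fell by 0.42.

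In mutated against wild-type CTCF, 8 of the 22 protein-coding hosts were lower and 2 higher, with a median of -0.08. Over all tested genes the median was -0.01, and 18.4% were called lower and 16.3% higher. By equal totals 9 of these hosts were lower and 4 higher, and by median of ratios 8 were lower and 3 higher. Nop56, a core protein of box C/D particles as well as a host, was lower by 0.35, and Tpt1 and Ppan were each lower by 0.31. Of the further Snhg genes 1 was higher (Snhg4, 0.14) and 1 lower (Snhg11, -0.45), and of the other noncoding hosts Epb41l4aos was lower by 0.25. Of the snoRNP list 4 were higher and 2 lower, with Nufip1 higher by 0.23 and Shq1 by 0.17. Of the NMD list 1 was higher (Smg1, 0.13) and 1 lower (Upf3a, -0.22). Of the growth list 1 was higher and 3 lower: Tsc2 (-0.38), Rps6kb1 (-0.28) and Mtor (-0.26).

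**Figure D4:**
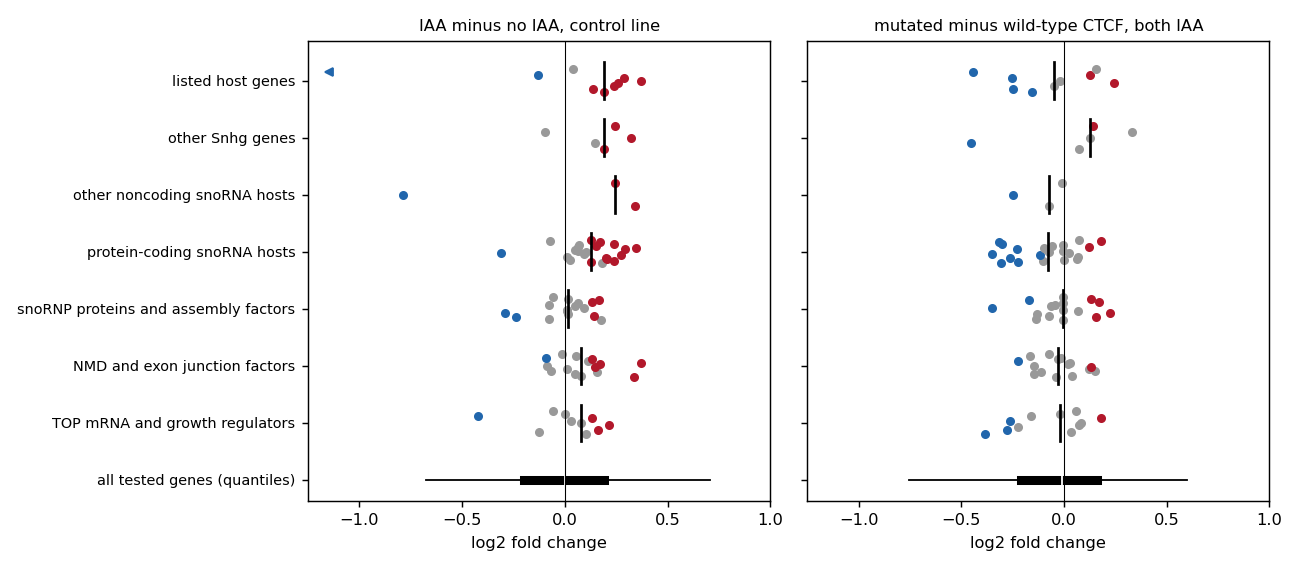
Log2 fold changes of the tested genes of each list with IAA (left) and in mutated against wild-type CTCF (right), red where a gene passed as higher, blue as lower and grey where it did not pass, with a vertical bar at the median of the list. The bottom line spans the 5th to 95th percentile of all tested genes, and its thick part the quartiles. The triangle at the left edge stands for Snhg17, whose change of -2.99 with IAA lies off the axis.

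The genes most like each member over the 8 libraries, by Pearson's r of log2 values among 11859 genes with a mean of at least 50, are given as a description. Libraries of a group share their treatment, so r follows the group means. The number of genes with r above 0.9 ran from 1 for Snhg8 to 534 for Gas5 and was 323 for Snhg17, so a best match is 1 of many for most members. Snhg17 was most like Saal1 (r = 0.999), which had 484 and 501 reads without IAA, 128 and 143 with IAA, 372 and 403 with wild-type CTCF, and 336 and 327 with mutated CTCF. The 4 groups of Saal1 thus stood in the same order as those of Snhg17. Gas5 was most like Thada (0.997), Snhg5 most like Rps7, a ribosomal protein gene (0.99), and Snhg12 most like Snrpf, a core spliceosome protein gene (0.98). Snhg1 was most like Naa38 (0.975), Snhg6 most like 5430405H02Rik (0.985) and Snhg15 most like Irak4 (0.986). Snhg20 was most like Agpat3 (0.98), and Snhg8 had the weakest best match, Ccdc62 (0.901).

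Among the members themselves, Gas5, Snhg1 and Snhg12 followed each other, with r of 0.91 to 0.92 for the 3 pairs. Snhg5 had r of 0.73 to 0.88 with these 3 genes. Snhg15 ran against them, with r of -0.77 to -0.63. The member most like Snhg17 was Snhg15, with r of 0.42.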

How the data were processed

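Trim Galore, STAR, featureCounts, DESeq2 and the mm10 build are named, per the submitters' processing notes, without the step, order or version of each. The authors deposited 1 table of normalized read counts, a signal in which every value of a library is a whole multiple of one step (100% within a tolerance of 0.1 reads). From the values, the deposited signal is whole reads divided by 1 factor per library, and 1 read was worth 0.836 to 1.19. Reads may include copies of one molecule.

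The main test was limma (3.58.1, R 4.3.3) on log2(value + 1) over all 8 libraries, with a coefficient for each group (4 residual degrees of freedom) and variances moderated toward a trend on the mean. It covered 15818 genes with a mean of at least 10. Benjamini-Hochberg adjustment ran over all of them in each of 6 comparisons, with a threshold of 0.05, and all adjusted p-values are from this fit unless another is named. Such changes understate those of low genes. The rate of false or missed calls in these libraries was not tested.

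Alternatives were a pseudocount of 0.5 or 10, a filter at a mean of 50 or none, rescaling by median of ratios or to equal totals, only the groups compared, no trend, the replicate number as a block, leaving out each library, and edgeR (4.0.16) on recovered reads. GENCODE M21, on GRCm38 (the same assembly as mm10), held 16917 of the IDs. Named genes are all members, up to 3 genes of each other list past the threshold with the largest change in the IAA and mutated against wild-type comparisons (mean of at least 50), neighbours that overlap or start within 1000 bases on the opposite strand, and the gene most like each member. Genes near Snhg17 and the motif letters were picked after the data were seen. The members and lists were chosen with earlier results of these data known. The Ctcf gene was not analysed here.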

Additional observations from a re-analysis of the deposited data

Results flagged for a closer look

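The change from the control with IAA differed between the mutated and the wild-type CTCF lines for 6 of the 9 listed host genes, by limma's test of the difference itself, which called 16.3% of all tested genes higher and 18.4% lower. The difference, mutated minus wild type on the log2 scale, was -0.1558 for Gas5, -0.2493 for Snhg1, -0.2532 for Snhg12 and -0.4406 for Snhg17. It was 0.2413 for Snhg6 and 0.1263 for Snhg15. The control cancels from this difference, so it equals the direct comparison of the lines. No group held 4 or more libraries, so none was examined for a library that stands apart.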

How the results depend on the processing

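Snhg17 kept its direction and its call in all 6 comparisons under every alternative run. Of 51 lost calls of the other members, 24 were lost with 1 library left out, 15 without the mean-variance trend and 12 under other settings. Without the trend the listed host genes past the threshold went from 8 to 4 with IAA, from 4 to 1 for wild-type CTCF against control, from 2 to 1 for mutated CTCF against control, from 6 to 3 for mutated against wild-type CTCF, and from 7 to 5 for each of wild-type and mutated CTCF against untreated. All genes past the threshold without the trend were 3946 (IAA, 5967 with it), 2379 (wild type against control, 4991), 3228 (mutated against control, 5433), 3263 (mutated against wild type, 5489) and 3869 (mutated against untreated, 5975). For mutated CTCF against control, 4 listed host genes passed after median-of-ratios rescaling, 4 with that rescaling and the replicate block together, and 2 with the block alone.

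With 1 library left out, where the lone library of a group is assumed to vary like the others, the listed host genes past the threshold were 5 to 8 for IAA (5 without the first control library with IAA), 1 to 4 for mutated CTCF against control (4 without its first library, 1 without its second) and 4 to 6 for mutated CTCF against untreated (7 with all; 4 without the first untreated library). All genes for wild type against control were 3274 to 4622 (3274 without the second wild-type library).

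Signs turned only for differences that did not pass. With equal totals Snhg20 with IAA was -0.01 (-0.0098) and Snhg1 for mutated CTCF against untreated -0.014. After median-of-ratios rescaling Snhg5 for wild type against control was -0.011 with and without the block. With 1 library left out, the log2 differences ran from -0.033 to 0.12 for Snhg20 with IAA. For wild type against control they ran from -0.30 to 0.096 for Snhg8, -0.013 to 0.11 for Snhg5 and -0.081 to 0.019 for Snhg15. For mutated CTCF against control they ran from -0.062 to 0.056 for Snhg5, -0.32 to 0.078 for Snhg8 and -0.028 to 0.0092 for Gas5. For mutated against wild type they ran from -0.18 to 0.14 for Snhg8, and for mutated CTCF against untreated from -0.069 to 0.00018 for Snhg15. The cause was not tested.

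The replicate numbers did not pair the libraries: deviations of same-numbered libraries correlated by -0.022 to 0.028 over 6 pairs of groups. With the replicate block 6423 genes passed with IAA (5967 without it), and 8 listed host genes in both fits. Under the block Snhg6 passed for wild type against control (-0.13, adjusted p = 0.0413) and against untreated (0.13, adjusted p = 0.0358), which took the listed host genes from 4 to 5 and from 7 to 8. edgeR's quasi-likelihood test called 8, 4 and 7 listed host genes for IAA, wild type against control and wild type against untreated, the same numbers as limma. It was not run for the comparisons with mutated CTCF, because the step of 1 of its libraries, 0.989, lies so near 1 that the criterion used did not admit its values as recovered reads, although they are whole multiples of that step. Of the values recomputed, 697 kept direction and side of the threshold, 51 fell short of it, 18 newly passed it and 17 changed sign. With 2 libraries a group, the calls of small changes such as those of Snhg15 and Snhg20 depended on single libraries. The differences kept their sign with 1 library left out, from -0.16 to -0.095 for Snhg15 with IAA. For Snhg20 in mutated CTCF against control they ran from 0.19 to 0.37.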
